A study of Mus musculus with 6 samples.

Results

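Kcnh7, a voltage-gated potassium channel gene, was described together with its relatives Kcnh1, Kcnh2, Kcnh3, Kcnh5 and Kcnh8 and with Kcnj2 and Kcnj13, whose loss is tied to palate defects. These are 8 of the 56691 genes with counts, matched by symbol through their Ensembl identifiers. Kcnh7 was chosen because it differed between the regions compared here, so its own values are given as a description with no test. The other 7 genes were taken as relatives or for their known roles in palate development.

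The study sampled the palatal shelves of C57BL/6J mouse embryos at E14.0, a stage of shelf elevation that precedes fusion. The anterior 1/3 and the posterior 1/3 of the shelves were dissected and each region was profiled by bulk RNA-seq of total RNA in 3 libraries. All embryos were of the same strain and stage, and the labels name no transgene, mutation or treatment. The comparison of the regions asks which genes differ along the anterior-posterior axis of the secondary palate. The labels do not tell whether a library came from 1 embryo or from pooled embryos, so p-values measure the spread between these samples. In bulk tissue, fewer cells of a type and less RNA per cell cannot be told apart.

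Potassium channels let potassium leave the cell along its gradient and so hold the membrane at a negative voltage or return it there. The Kcnh family opens on depolarization and has the branches EAG (Kcnh1 and Kcnh5), ERG (Kcnh2, Kcnh6 and Kcnh7) and ELK (Kcnh3, Kcnh4 and Kcnh8). ERG channels are best known for ending the cardiac action potential and for tuning the firing of neurons. The Kcnj family conducts near the resting voltage. Loss of Kcnj2 function causes Andersen-Tawil syndrome, in which cleft palate can occur, and mice without Kcnj2 or Kcnj13 have a cleft palate.

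The 2 families share a short selectivity filter, the stretch of the pore that lets potassium pass and holds back sodium. The codons around it are shown to compare each gene with Kcnh7 at a conserved part of the protein. Each sequence below is 45 bases of coding sequence from GENCODE M21 (GRCm38), written 5′ to 3′ on the strand of the gene, with the 3 filter codons in capitals. They encode glycine, phenylalanine and glycine in the Kcnh genes, and glycine, tyrosine and glycine in Kcnj2 and Kcnj13.
Kcnh7 (chr2:62777325-62777369, minus strand): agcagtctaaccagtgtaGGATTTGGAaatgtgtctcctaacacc
Kcnh2 (chr5:24325537-24325581, minus strand): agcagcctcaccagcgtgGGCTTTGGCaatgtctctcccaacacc
Kcnh1 (chr1:192337742-192337786, plus strand): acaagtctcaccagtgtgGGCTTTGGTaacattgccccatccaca
Kcnh3 (chr15:99232917-99232961, plus strand): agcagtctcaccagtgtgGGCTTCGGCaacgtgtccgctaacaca
Kcnj2 (chr11:111072195-111072239, plus strand): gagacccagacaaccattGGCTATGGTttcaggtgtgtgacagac
Kcnj13 (chr1:87389003-87389047, minus strand): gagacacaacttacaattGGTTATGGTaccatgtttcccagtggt

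Each of the 45-base stretches lay within 1 coding exon. Kcnh2, of the same branch as Kcnh7, had the same base as Kcnh7 at 37 of the 45 positions. Kcnh3 and Kcnh8 had 36, Kcnh1 and Kcnh5 had 30, Kcnj13 had 19 and Kcnj2 had 17. Over the aligned bases of the whole coding sequence, Kcnh2 was 65.7% identical to Kcnh7, and the other 4 Kcnh genes were between 56.9% and 59.7% identical. None of the 5 coding sequences was a near-identical copy of that of Kcnh7, and how reads were assigned between the genes was not tested.

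Counts of reads on the strand of each gene ranged from 11378736 to 15172733 per library. They are given as counts, in the order of replicates 1, 2 and 3, and as counts scaled to library size by TMM (CPM). Levels of the 8 genes are compared with one another only per length, as CPM per kilobase of merged exons (RPKM). The detection limit was taken as 3 counts in a library, the most that a count of 0 allows. It lay between 0.206 and 0.260 CPM and takes in counting error alone. A gene entered edgeR's quasi-likelihood test, with Benjamini-Hochberg adjustment, if 3 or more libraries held 10 or more of its counts. Among 15673 genes tested, 7.46% had an adjusted p below 0.05, 4.87% higher in the posterior and 2.59% higher in the anterior palate. Log2 fold changes are posterior over anterior, with their standard error (SE), and had a median of -0.0040 over all genes tested. Posterior replicates 2 and 3 stood apart from the other 4 libraries, with 5.94% to 6.12% of reads mapping to several places against 8.45% to 8.77%, and 0.973% to 1.14% of counts on mitochondrial genes against 2.70% to 2.97%. Both are posterior, so that this split and the region cannot be fully told apart. Of 8 palatal mesenchyme markers, all 8 were tested, and their summed level was 8902 to 9561 CPM in the anterior and 11931 to 18398 CPM in the posterior libraries, most of it from Col1a1 and Col3a1. Prrx1, a mesenchymal regulator on the same list, fell from 1057.5 ± 21.3 to 417 ± 38.2 CPM (SD, n = 3 each; log2 fold change -1.34, adjusted p = 0.000604 by edgeR).

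Kcnh7 was read in the posterior palate and was at or under the detection limit in the anterior palate. Its gene (ENSMUSG00000059742.11, chr2:62693414-63184287, minus strand) held 3, 1 and 0 counts in the anterior libraries. The posterior libraries held 122, 308 and 223 of its counts. All 3 posterior libraries were far above all 3 anterior libraries, and within the posterior palate replicate 2 was highest and replicate 1 lowest.

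In normalized levels, Kcnh7 was at 9.13, 22.3 and 15.3 CPM in the posterior libraries, a mean of 15.6 ± 6.56 CPM (SD, n = 3). The anterior mean was 0.100 ± 0.116 CPM (SD, n = 3). The log2 fold change was 7.11 (SE 0.62). Summed over the libraries, 653 posterior counts stood against 4 anterior counts, a ratio of 150.4 after scaling, with a 95% exact interval of 58.5 to 554 for counting error only. The width of that interval comes from the few anterior reads, 3 of which were in anterior replicate 1. Without that library the fitted log2 fold change was 8.32, and without posterior replicates 2 and 3, whose libraries stand apart, it was 6.33.

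**Figure D1:**
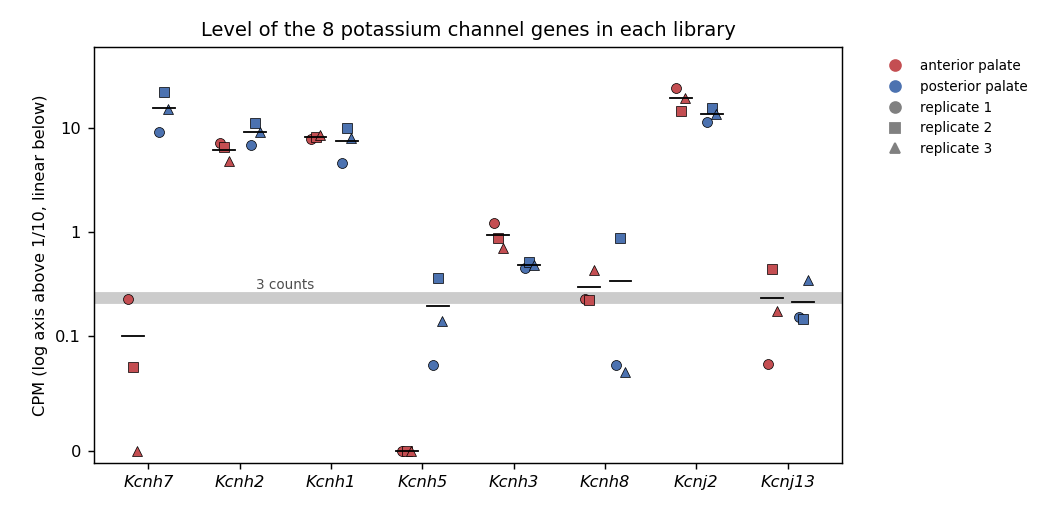
Level of each of the 8 genes in CPM (vertical axis, logarithmic above 0.1 and linear below) in the 3 anterior (red) and 3 posterior (blue) libraries, with the mean of each region as a black bar and the level of 3 counts as a grey band. Kcnh7 lies at or under the band in all 3 anterior libraries and at 9.13 to 22.3 CPM in the posterior libraries, whereas Kcnh1, Kcnh2 and Kcnj2 lie above the band in all 6 libraries.

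The 250 bases before the annotated start of Kcnh7 are shown because the gene was read in 1 region and hardly in the other. The sequence is from RefSeq (GRCm38.p6, chr2:63184288-63184537), 5′ to 3′ on the minus strand, with the only match to the E-box core CANNTG in capitals.
Kcnh7 promoter: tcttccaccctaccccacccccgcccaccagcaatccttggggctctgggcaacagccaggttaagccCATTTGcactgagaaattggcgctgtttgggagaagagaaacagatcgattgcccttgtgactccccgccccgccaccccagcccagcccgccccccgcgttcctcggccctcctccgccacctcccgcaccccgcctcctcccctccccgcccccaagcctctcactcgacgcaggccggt

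The stretch was rich in G and C, at 67.6% against a median of 52% over 27025 promoters of the same length, 12.5% of which were higher. The E-box core, searched on both strands, stood 182 bases before the start and is common, with a match in 66.2% of all promoters. The homeodomain core TAATTA and the TATA box core TATAAA were not found in these letters, and were present in 4.98% and 12.9% of promoters. A match describes the letters only.

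Kcnh2, the other ERG gene that was read here, carries the channel whose loss prolongs the cardiac action potential. It had 94, 90 and 55 counts in the anterior libraries, against 92, 153 and 133 in the posterior ones. The regions overlapped, because posterior replicate 1 fell among the anterior libraries while the other posterior libraries lay above them. The means were 6.14 ± 1.24 CPM in the anterior and 9.02 ± 2.09 CPM in the posterior palate (SD, n = 3 each). The log2 fold change of 0.55 (SE 0.24) had an adjusted p of 0.199 in edgeR's quasi-likelihood test. Without posterior replicate 1 it was 0.71 and passed the threshold (adjusted p = 0.0217 by edgeR), in a fit that called 46.6% of all genes, and with posterior replicates 2 and 3 left out it was 0.15.

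Kcnh1, the EAG channel gene whose gain-of-function variants cause Temple-Baraitser and Zimmermann-Laband syndromes, was read in all 6 libraries. It had 103, 111 and 99 counts in the anterior libraries and 61, 139 and 116 in the posterior ones. The anterior libraries were close together, and the posterior libraries lay on both sides of them. The log2 fold change was -0.11 (SE 0.27, adjusted p = 0.808 by edgeR), from 8.15 ± 0.381 to 7.52 ± 2.76 CPM (SD, n = 3 each). The value turned on the posterior libraries used. Leaving out posterior replicate 1 turned its sign, to 0.14, while it was -0.84 with posterior replicates 2 and 3 left out and -0.83 with a term for the 2 library groups (adjusted p = 0.0553 and 0.0691 by edgeR).

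Kcnh5, the other EAG gene, had no count in any anterior library and 1, 5 and 2 counts in the posterior libraries. Only posterior replicate 2 exceeded the detection limit, so no fold is given, and the anterior zeros allow up to 0.218 to 0.260 CPM. The posterior libraries were all above the anterior zeros, with p = 0.1 in an exact two-sided permutation test, the smallest that 3 against 3 libraries allow. Among genes tested, 14.7% had every posterior library above every anterior library. Without the count minimum edgeR gave an unadjusted p of 0.0182 and an adjusted p of 0.153.

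The ELK genes, channels mainly known from neurons, were scarce. Kcnh3 had 16, 12 and 8 anterior counts against 6, 7 and 7 posterior counts. It exceeded the limit in all 6 libraries, and every anterior library was above every posterior library, at 0.926 ± 0.265 against 0.478 ± 0.0283 CPM (SD, n = 3 each). Regions that do not overlap are not rare here: among genes tested, 28% did not overlap, 13.4% with the anterior palate higher. Kcnh3 did not reach the count minimum for the test. An exact two-sided permutation test gave p = 0.1, the smallest that 3 against 3 libraries allow, and edgeR without the minimum gave a log2 fold change of -0.95 (adjusted p = 0.325 over 30259 genes).

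Kcnh8 had 3, 3 and 5 counts in the anterior and 1, 12 and 1 in the posterior libraries. Its posterior reads were nearly all in replicate 2. Without the count minimum edgeR gave a log2 fold change of 0.21 (SE 0.84, adjusted p = 0.918), so no difference between the regions was detected. The 2 family genes outside the set were lower still. Kcnh4 (ELK) had 0, 1 and 1 anterior and 0, 9 and 0 posterior counts, and Kcnh6 (ERG) had 1 count in all, in posterior replicate 2.

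Kcnj2, an inward rectifier that sets the resting voltage and takes part in the fusion of muscle precursors, was the most abundant of the 8 genes per length. Its counts were 315, 201 and 222 in the anterior and 153, 213 and 197 in the posterior libraries. Anterior replicate 1 was well above the rest, and anterior replicate 2 fell within the posterior range. The means were 19.2 ± 4.64 CPM in the anterior and 13.45 ± 1.97 CPM in the posterior palate (SD, n = 3 each). The log2 fold change of -0.52 (SE 0.20) had an unadjusted p of 0.0377 and an adjusted p of 0.173 by edgeR. It was negative under every alternative setting, between -0.75 and -0.33, with adjusted p from 0.112 to 0.451. The value nearest 0 was the one without anterior replicate 1.

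Kcnj13, an inward rectifier of epithelia such as the retinal pigment epithelium, was at the edge of detection. It had 1, 6 and 2 counts in the anterior and 2, 2 and 5 in the posterior libraries, and exceeded the limit in 2 of the 6. The means of 0.228 ± 0.186 and 0.212 ± 0.113 CPM (SD, n = 3 each) overlapped throughout. Because Kcnj13 is short, with 1270 bases of merged exons, 3 counts correspond to 0.162 to 0.204 RPKM, against 0.0135 to 0.0170 RPKM for Kcnh7 with 15226 bases. The whole of Kcnj13 lies inside Gigyf2 on the opposite strand, and reads on the strand opposite to Kcnj13 numbered 2 in the anterior and 7 in the posterior libraries.

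In all, 4 of the 8 genes (Kcnh7, Kcnh2, Kcnh1 and Kcnj2) reached the count minimum, and Kcnh7 did so only through the posterior libraries. Of the other 7 genes, 3 were tested and 0 were called by edgeR, beside 7.46% of all genes tested, a share at which 0 of 3 says little. Of the 3, 1 (Kcnj2) had an unadjusted p under 0.05. DESeq2 and limma-voom also called 0, and so did edgeR without the count minimum.

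**Figure D2:**
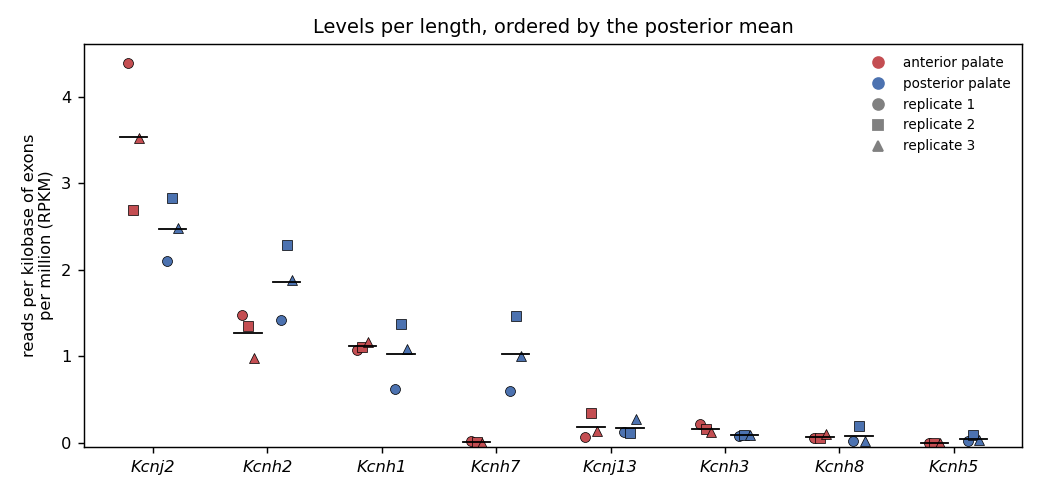
Level per length of the 8 genes in RPKM (vertical axis, linear) in each library, anterior in red and posterior in blue, ordered by the posterior mean, with black bars for the mean of each region. In the posterior palate Kcnh7, at 1.02 RPKM, lies beside Kcnh1 at 1.03 RPKM and below Kcnh2 and Kcnj2, and in the anterior palate it lies near 0.

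Per length, the posterior order was Kcnj2 at 2.47 ± 0.362 RPKM, Kcnh2 at 1.86 ± 0.430, Kcnh1 at 1.03 ± 0.377, Kcnh7 at 1.02 ± 0.431 and Kcnj13 at 0.167 ± 0.0890 RPKM (SD, n = 3 each). Kcnj2 and Kcnh2 overlapped, and so did Kcnh1 and Kcnh7, whose order changed between libraries. Kcnh2 did not overlap with Kcnh1, nor Kcnh7 with Kcnj13. Kcnh3, Kcnh8 and Kcnh5 followed at 0.0831, 0.0739 and 0.0471 RPKM. The place of Kcnh8 rests on posterior replicate 2, with 0.0164, 0.190 and 0.0150 RPKM in the order of replicates. In the anterior palate the order was Kcnj2 at 3.53 ± 0.853 RPKM, Kcnh2 at 1.27 ± 0.255 and Kcnh1 at 1.11 ± 0.0520 (SD, n = 3 each), with Kcnh2 and Kcnh1 overlapping and Kcnh7 at 0.00658 RPKM. The levels rest on all annotated exons, and Kcnh7 has 15226 bases of merged exons for a coding sequence of 3585 bases, so that its level per length depends on which exons are used.

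Within the Kcnh family, Kcnh7 made up 0.531%, 0.179% and 0% of the summed RPKM of the anterior libraries. Its share of the posterior libraries was 21.8%, 25.8% and 24.5%. The posterior shares were close together although the summed level of the family was not, at 2.76, 5.66 and 4.10 RPKM. Without Kcnh7 the family summed to 2.80, 2.67 and 2.39 RPKM in the anterior and 2.16, 4.20 and 3.10 RPKM in the posterior libraries, with posterior replicate 1 below and the other 2 above all anterior libraries. The share of Kcnh2 was 41.1% to 52.3% in the anterior and 40.3% to 51.6% in the posterior libraries, while that of Kcnh1 was 37.9% to 48.9% and 22.6% to 26.4%. A share falls when another member of the sum rises, so the shares of Kcnh1 say nothing of its own level.

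Of the 4 nearest protein-coding genes around Kcnh7 on chromosome 2, 3 were called higher in the posterior palate, by smaller folds. Among all genes tested, 4.87% were called higher there, and 14.7% had every posterior library above every anterior library. A link between these genes and Kcnh7 was not tested. Gca, which encodes the calcium-binding protein grancalcin, lies tail to tail with Kcnh7 on the plus strand (chr2:62664285-62694109), and the annotated ends of the 2 genes overlap by 696 bases. It had 15, 11 and 9 anterior and 143, 250 and 227 posterior counts. Posterior replicate 2 was highest and replicate 1 lowest for Gca too. Gca rose by 4.01 on the log2 scale (SE 0.29, adjusted p = 0.000372 by edgeR), from 0.906 ± 0.202 to 14.8 ± 3.74 CPM (SD, n = 3 each). Ifih1, a cytosolic sensor of viral RNA on the far side of Gca, rose by a log2 fold change of 1.22 (SE 0.24, adjusted p = 0.0232 by edgeR). On the other side of Kcnh7, Fign, a microtubule-severing ATPase 787220 bases away, rose by 1.25 on the log2 scale (SE 0.17, adjusted p = 0.00504 by edgeR). Grb14, an adaptor of the insulin receptor 1728189 bases away, had 0.14 (adjusted p = 0.681).

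**Figure D3:**
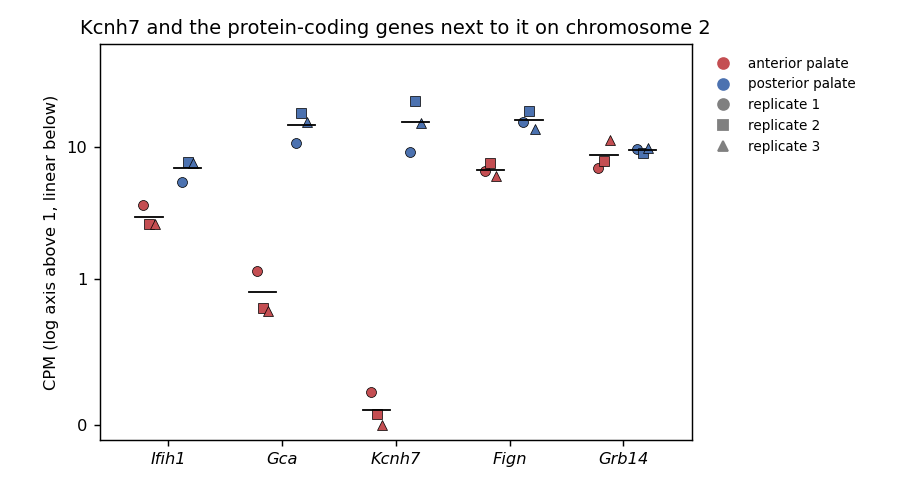
Level of Kcnh7 and of the 2 nearest protein-coding genes on each side in CPM (vertical axis, logarithmic above 1 and linear below), in chromosome order, for anterior (red) and posterior (blue) libraries with region means as black bars. The posterior libraries lie above the anterior libraries for Ifih1, Gca, Kcnh7 and Fign, and the regions overlap for Grb14.

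For Kcnj2 and Kcnj13 no neighbour was called by edgeR. Kcnj16, an inward rectifier gene 38196 bases from Kcnj2, had 14, 13 and 15 anterior and 3, 8 and 6 posterior counts. Its regions did not overlap, and its log2 fold change was -1.41 (SE 0.40, adjusted p = 0.0801 by edgeR). Sox9, the chondrocyte regulator on the other side of Kcnj2 at a distance of 1705403 bases, had 0.35 (adjusted p = 0.470). Map2k6 and Slc39a11, the remaining neighbours, had -0.13 and -0.06 on the log2 scale (adjusted p = 0.555 and 0.696). Gigyf2, which contains Kcnj13, had a log2 fold change of 0.31 (adjusted p = 0.243), Efhd1 had 0.81 (adjusted p = 0.281) and Ngef had 0.07 (adjusted p = 0.893), while Snorc had 1 count in all.

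The other potassium channel genes give the setting for Kcnh7. Of 86 protein-coding genes outside the 8 whose symbol starts with Kcn, 56 were tested, and 6 (10.7%) were called by edgeR, 5 higher in the posterior and 1 in the anterior palate, beside 7.46% of all genes tested. Their median log2 fold change was 0.17, with 36 of 56 above 0, against -0.0040 for all genes tested. Of the 30 not tested, 12 never exceeded 3 counts in any library, 4 of them without a single read. Of the 6 called, Kcnc1, Kcnc4 and Kcnk13 reached the count minimum only through the posterior libraries. Where every library had to hold 10 counts, only Kcna6 and Kcnj8 were called, 1 in each direction. The count called moved to 3 with the replicate number as a block or with a term for the 2 library groups, to 1 without anterior replicate 2 or without posterior replicate 2, to 2 without anterior replicate 1 and to 22 without posterior replicate 1. In the last case 39.3% of these genes and 46.6% of all genes were called. The share called was 5.36% beside 5.29% of all genes with the block, and 5.36% beside 7.61% with the library-group term. With 10 counts needed in every library it was 4.88% beside 6.01%. It was 14.3% beside 12.6% with DESeq2, 10.7% beside 6.85% with limma-voom and 15.9% beside 7.15% without the count minimum. Whether these genes exceeded the share of all genes thus depended on the setting.

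Of the voltage-gated channels outside the Kcnh family, the largest class, 24 of 32 were tested, and 3 (12.5%) rose and 0 fell, with a median of 0.47. Kcnc1, a fast delayed rectifier known from neurons that fire at high rates, was nearest to Kcnh7 in size. It had 1, 4 and 0 anterior and 62, 70 and 55 posterior counts. Like Kcnh7, it was hardly read in the anterior palate, but its posterior libraries were closer together. Its log2 fold change was 5.02 (SE 0.56, adjusted p = 0.0024), from 0.122 ± 0.151 to 4.49 ± 0.656 CPM (SD, n = 3 each), and edgeR, DESeq2 and limma-voom all called it. Kcnc4, of the same subfamily, had 5, 3 and 7 anterior and 20, 17 and 19 posterior counts (log2 fold change 1.75, SE 0.39, adjusted p = 0.0397 by edgeR). DESeq2 did not call it (adjusted p = 0.0554), nor did edgeR with the replicate block or the library-group term (adjusted p = 0.0840 and 0.0686). Over the alternatives, the log2 fold change of Kcnc4 lay between 1.44 and 2.14. Kcna6, the highest of this class per length, rose from 28.5 ± 2.70 to 40.6 ± 2.25 CPM (SD, n = 3 each; log2 fold change 0.51, adjusted p = 0.0338 by edgeR). Its call was lost with unstranded counts, the replicate block and the library-group term (adjusted p = 0.0919, 0.0706 and 0.0832 by edgeR). Kcna5, the next per length, had 0.53 (adjusted p = 0.304).

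The inward rectifiers outside the 8 genes had a negative median, -0.44 over 8 tested of 13, with 0 called higher and 1 called lower in the posterior palate. Kcnj8, the pore subunit of a channel closed by ATP in pericytes and smooth muscle, had 72, 71 and 87 anterior and 14, 22 and 41 posterior counts. Every posterior library was below every anterior library. It fell by 1.72 on the log2 scale (SE 0.36, adjusted p = 0.0312 by edgeR), from 6.05 ± 1.29 to 1.82 ± 0.903 CPM (SD, n = 3 each). With the library-group term the value was -2.51. Kcnj8 is also a mural cell marker, and among 7 tested genes of that list, Acta2 and Tagln were called higher, and Kcnj8 and the pericyte marker Rgs5 (log2 fold change -2.04, adjusted p = 0.0147 by edgeR) lower in the posterior palate. The list summed to 182.8 to 253 CPM in the anterior and 301 to 361 CPM in the posterior libraries, and its part in the Kcnj8 result was not tested. Kcnj15 had -0.15 (adjusted p = 0.661).

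Two-pore-domain channels, which carry background potassium current, had 1 called gene among 6 tested of 14, with a median of 0.10. It was Kcnk13, with 1, 5 and 6 anterior and 24, 31 and 22 posterior counts (log2 fold change 2.52, SE 0.50, adjusted p = 0.0242 by edgeR). That call was lost with the replicate block and the library-group term (log2 fold change 2.56 and 2.49, adjusted p = 0.0551 and 0.0541 by edgeR). Kcnk1 and Kcnk6, the highest of the class per length, had 0.22 (adjusted p = 0.398) and 0.08 (adjusted p = 0.850). Kcnk1 passed the threshold at 0.51 both with the library-group term and with posterior replicates 2 and 3 left out (adjusted p = 0.0426 and 0.0408 by edgeR). Channels opened by calcium or sodium had a median of 0.98 over 7 tested of 8, and 1 was called. Kcnt2, a sodium-activated channel, had 5, 8 and 16 anterior and 42, 93 and 127 posterior counts (log2 fold change 3.00, SE 0.54, adjusted p = 0.0170 by edgeR). It was 2.03 with the library-group term, where the call was lost (adjusted p = 0.0557), 2.03 with posterior replicates 2 and 3 left out and 3.66 without anterior replicate 3. Kcnma1, the large-conductance calcium-activated channel of smooth muscle, had 143, 339 and 456 posterior counts against 122 to 177 anterior counts. Its log2 fold change of 0.98 (adjusted p = 0.154) became -0.07 with a term for the library groups, and posterior replicate 1 lay within the anterior range. Kcnn1 had -0.02 (adjusted p = 0.947). Of the auxiliary subunits, 11 of 17 were tested and 0 were called by edgeR, 4 at an unadjusted p under 0.05, with 1 called by DESeq2, 0 by limma-voom and a median of 0.19. Among them Kcnmb4 and Kcnip3 had -0.20 (adjusted p = 0.608) and -0.45 (adjusted p = 0.229). Leaving out each of the 6 libraries in turn ended the call of Kcna6 in 5 cases, of Kcnc4 and Kcnj8 in 4 each, of Kcnk13 and Kcnt2 in 3 each and of Kcnc1 in 0, and the log2 fold change of Kcnc1 reached 6.50 without anterior replicate 2.

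**Figure D4:**
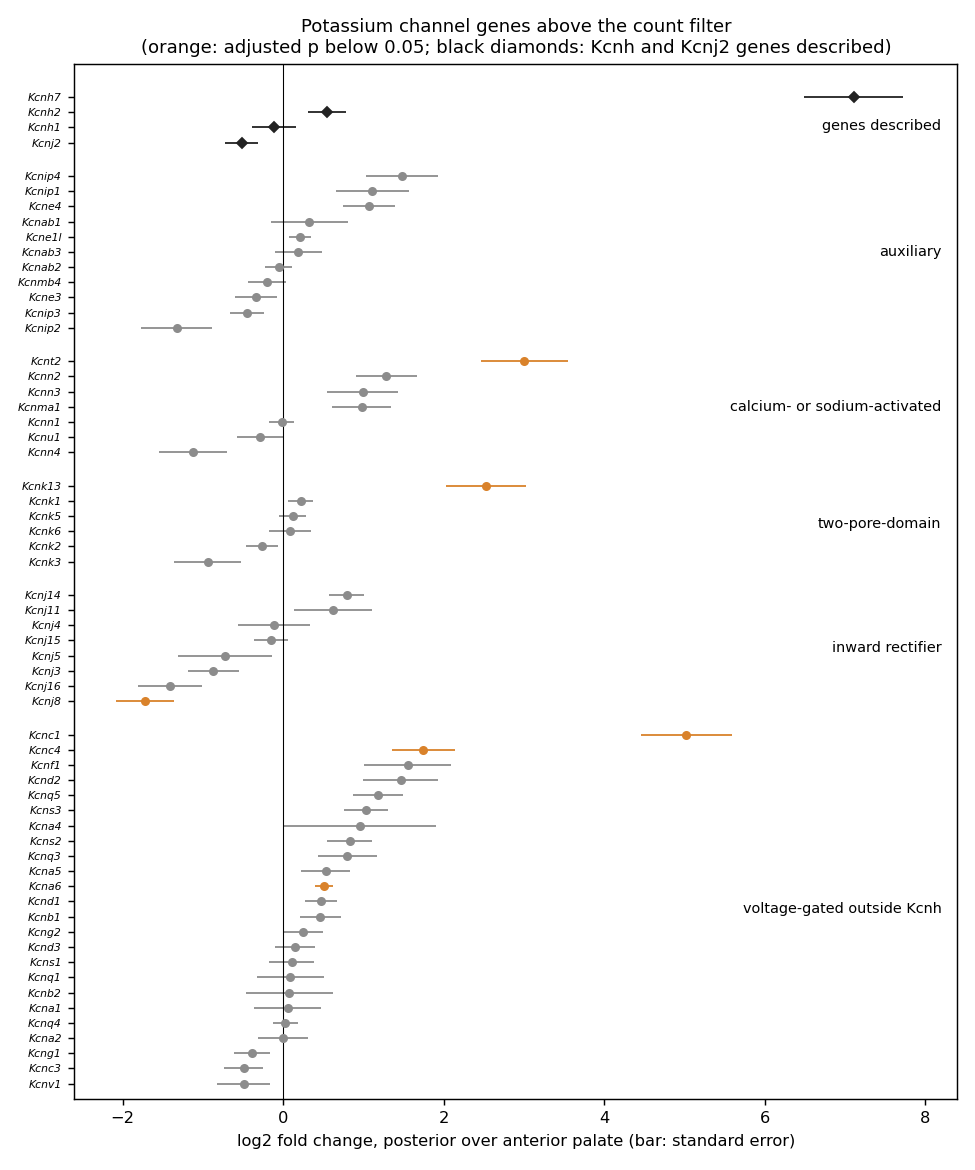
Log2 fold change, posterior over anterior palate (horizontal axis, with bars for 1 standard error), of the potassium channel genes above the count minimum, grouped by class. Orange points passed an adjusted p of 0.05 in edgeR, grey points did not, and black diamonds are Kcnh7, Kcnh2, Kcnh1 and Kcnj2, with Kcnh7 at 7.11, to the right of Kcnc1 at 5.02.

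The Hcn and Cng genes, which share the cyclic nucleotide-binding fold with the Kcnh family, showed no called gene among 4 tested of 10 by edgeR, and 0 at an unadjusted p under 0.05 or by DESeq2 or limma-voom (median -0.06). Of 24 sodium and calcium channel genes, 18 were tested, and 3 (16.7%) rose and 0 fell, beside 4.87% of all genes called higher in the posterior palate, with a median of 0.82. DESeq2 called 8 of them, limma-voom 3, and edgeR without the count minimum 10. Cacna1s, the voltage sensor of skeletal muscle contraction, had 1, 1 and 3 anterior and 56, 43 and 94 posterior counts (log2 fold change 5.04, SE 0.53, adjusted p = 0.00176 by edgeR). Scn4a, the skeletal muscle sodium channel, had 4, 1 and 1 anterior and 13, 10 and 10 posterior counts (2.28, SE 0.54, adjusted p = 0.0477 by edgeR). Both Cacna1s and Scn4a reached the count minimum only through the posterior libraries, where they were high. Cacna1d, an L-type calcium channel of endocrine and pacemaker cells, rose from 6.52 ± 0.921 to 18.3 ± 5.90 CPM (SD, n = 3 each; log2 fold change 1.49, adjusted p = 0.0149 by edgeR). Cacna1s passed the threshold in all 16 alternatives that gave it a value. Its log2 fold change was 5.78 without anterior replicate 3. Scn4a passed in 5 of 16, with adjusted p from 0.0258 to 0.184 and a log2 fold change of 3.18 without anterior replicate 1. Cacna1d lost its call without anterior replicate 1, anterior replicate 2 or posterior replicate 2, with adjusted p up to 0.0796, and its log2 fold change was 0.88 with posterior replicates 2 and 3 left out.

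The 5 genes whose pattern over the 6 libraries was most like that of Kcnh7, out of 15672, were Ano5, Chrna1, Myod1, Myh7 and Neb. The measure was the root mean square difference of centred log2 CPM with a prior of 1 count, which was 0.686, 0.700, 0.703, 0.763 and 0.799. Myod1 is the myogenic regulator, Chrna1 a subunit of the muscle acetylcholine receptor, Myh7 a slow myosin heavy chain, Neb the thin filament protein nebulin, and Ano5 a membrane protein mutated in a muscular dystrophy. Myod1 had 1, 2 and 1 anterior and 257, 307 and 315 posterior counts, and Chrna1 had 6, 3 and 2 anterior and 180, 194 and 254 posterior counts. Ano5 had 2, 0 and 0 anterior and 44, 72 and 87 posterior counts. Ano5 and Myod1 never exceeded 3 counts in the anterior libraries, as Kcnh7 did not, while Myh7 and Neb exceeded 3 counts in all 6 libraries. Kcnc1 ranked 37th at 1.18, Gca 67th at 1.39 and Kcnt2 178th at 2.10. The measure is driven by the size of the step between the regions, with only 3 libraries in each, and the nearest genes change with the prior, of which 3 of 5 remained with a prior of 0.5 and 4 of 5 with a prior of 2.

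Skeletal muscle markers were higher in all posterior libraries, while the level of neuronal markers differed widely between them. Of 12 skeletal muscle markers, all 12 were tested and called higher in the posterior palate by edgeR, with a median log2 fold change of 5.98. They summed to 14.4, 15.1 and 17.8 CPM in the anterior libraries, and to 852, 665 and 1152 CPM in the posterior ones. The order of the posterior libraries differed between these genes. Of the 12, 7 were lowest in replicate 2, where Kcnh7 was highest, and 2 were highest there, Myod1 (19.2, 22.2 and 21.6 CPM) and Myf5 (3.14, 3.25 and 2.54 CPM). In replicate 1, where Kcnh7 was lowest, 4 of the 12 were lowest. Of 10 neuronal markers, 8 were tested, 2 were called higher and 1 lower in the posterior palate, with a median of 2.36. Their sum was 53.4 to 58.6 CPM in the anterior libraries, and 80.8, 404 and 49.1 CPM in the posterior ones.

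Posterior replicate 2 held most of the neuronal reads. Prph, an intermediate filament of peripheral neurons, had 83, 918 and 21 posterior counts. The same library had the most counts of Kcnh7, Kcnh2, Kcnh1, Kcnj2, Kcnh5, Kcnh8 and Kcnh4 among the posterior libraries. All 10 neuronal markers were highest in it among the posterior libraries. In posterior replicate 3, with 223 counts of Kcnh7, the neuronal sum was below that of every anterior library, while Nefm and Nefl, the neurofilament genes called higher, were at 16.0 and 12.5 CPM against at most 3.19 and 6.75 CPM in the anterior libraries. Without posterior replicate 2 the log2 fold change of Kcnh7 was 6.76. The part of muscle cells and of neurons in the level of Kcnh7 was not tested.

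**Figure D5:**
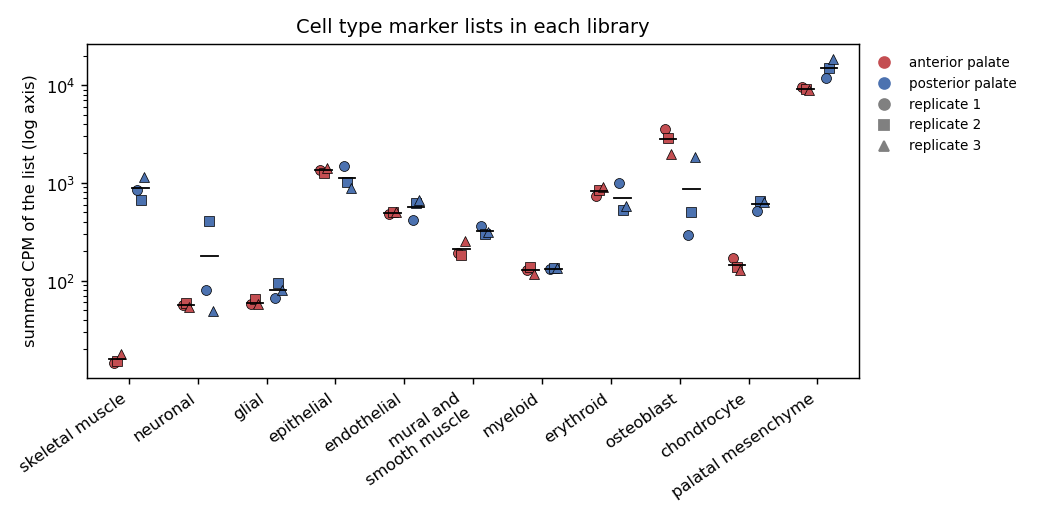
Summed level of 11 cell type marker lists in CPM (vertical axis, logarithmic) in each library, anterior in red and posterior in blue, with region means as black bars. The skeletal muscle sum is 14.4 to 17.8 CPM in the anterior and 665 to 1152 CPM in the posterior libraries, and the neuronal sum stands at 404 CPM in posterior replicate 2.

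Of the remaining lists, glial markers had 1 of 8 called higher in the posterior palate (median 0.12), epithelial markers 2 of 8 called lower (median -0.21), and chondrocyte markers 2 of 5 called higher (median 1.75). Of the palatal mesenchyme markers 3 were called higher and 1 lower (median 0.79). Endothelial, myeloid, erythroid and osteoblast markers had 0 called by edgeR, with medians of 0.12, 0.02, -0.41 and -0.92. At an unadjusted p under 0.05 these 4 lists had 2, 4, 0 and 3 genes, and DESeq2 called 1, 0, 0 and 3. The mural list, which holds Kcnj8, had a median of 0.25.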

How the data were processed

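Total RNA of 3 anterior and 3 posterior palate samples was sequenced in bulk. The files deposited by the authors hold, for each library, raw counts per Ensembl gene, unstranded and for each strand, in the layout of STAR gene counts. The submitters' processing notes name HISAT2, StringTie, DESeq2 1.30.1 and the build mm10, and the annotation version is not given in the sources used here. The reverse-stranded counts were used, since they were 18.95 to 23.1 times those of the other strand in every library. In all, 52073 of 56691 identifiers were paired, ignoring version numbers, with a symbol and a position in GENCODE M21 (GRCm38). Counts depend on the annotated exons, and a length of all merged exons was used for RPKM.

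Regions were compared with region as the only term by edgeR 4.0.16 in R 4.3.3 (TMM, at least 10 counts in at least 3 libraries, quasi-likelihood test, Benjamini-Hochberg threshold 0.05). Standard errors were taken from the quasi-likelihood statistic. The methods were tested on simulated data. Exact intervals and permutation tests used scipy 1.17.1, and coding sequences were aligned with Biopython 1.88. Reads that were unmapped (2.71% to 4.65%), mapped to several places or lay in no gene stayed out of library sizes. No pair of replicates was alike within sampling noise (chi-square per gene 3.73 to 68.0).

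Alternatives were limma-voom (limma 3.58.1), DESeq2 1.42.0, scaling by RLE or by library size alone, no count minimum, a minimum of 10 counts in every library, the counts of both strands, a replicate block, a term for the 2 library groups parted by the share of multiply mapping reads, a length correction, other priors, and leaving out each library. Leaving out posterior replicates 2 and 3 together was chosen after seeing the data. The genes described and all lists were chosen with earlier results of these data known. By rule, the text names the 8 genes, Kcnh4 and Kcnh6, up to 6 called potassium channel genes with the largest change in each direction, the 2 of each class with the highest CPM (not per length), the 3 called sodium or calcium channel genes with the largest change in each direction, the 2 nearest protein-coding neighbours on each side of Kcnh7, Kcnj2 and Kcnj13, and the 5 genes most like Kcnh7. Prph, Nefm, Nefl, Rgs5, the muscle and mesenchyme markers and the rank of Gca, Kcnc1 and Kcnt2 were added after their values were seen. The result of 1 gene in the lists is not reported here.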

Additional observations from a re-analysis of the deposited data

Results flagged for a closer look

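Reads on the strand opposite to Kcnh7, which the reverse-stranded counts leave out, were present in the posterior and nearly missing in the anterior libraries. The anterior libraries held 1, 0 and 2 such reads and the posterior ones 29, 49 and 48, in replicate order, the latter adding up to 126. The 126 reads were 16.2% of the posterior reads on either strand of Kcnh7 (95% exact binomial interval 13.7% to 18.95%, counting error only). Over all genes tested the median share was 0.685%, and 6.65% of genes had a higher share than Kcnh7. For Kcnh2, Kcnh1 and Kcnj2 the share in the posterior libraries was 0.264%, 0.315% and 0.177%. Gca, which overlaps the end of Kcnh7, had 21, 16 and 15 posterior and no anterior reads on its opposite strand, a share of 7.74%. The annotated antisense gene in Kcnh7, Gm13569, had 1 count in all, in posterior replicate 1. The origin of these reads was not tested. With unstranded counts the log2 fold change of Kcnh7 was 6.84.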

How the results depend on the processing

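The log2 fold change of Kcnh7, whose sign its choice fixes, ran from 6.33 with posterior replicates 2 and 3 left out to 8.32 without anterior replicate 1. It was 6.34 with the library-group term, and it had no value where every library had to hold 10 counts. The count over all genes, 1169, was 1978 with DESeq2 and 2162 without the count minimum. Leaving out 1 library gave 528 to 7309, the highest without posterior replicate 1. The potassium channel count, 6, was 13 without the minimum, 2 where every library had to hold 10 counts and 3 with the library-group term (Kcnc1, Kcnj8 and Kcnk1, the last not called otherwise on all 6 libraries). Leaving out 1 library gave 1 to 22. Whether anterior and posterior libraries of the same number share embryos is not given by the labels. Correlations between libraries of the same number were -0.0527, 0.0450 and 0.0355, within the range for different numbers (-0.133 to 0.0904). Such values cannot decide on pairing, since posterior replicate 1 stood far from posterior replicates 2 and 3. The chi-square per gene was 53.75 and 67.99 there, against 10.17 between posterior replicates 2 and 3. With the replicate number as a block, 829 genes and 3 potassium channel genes (Kcnc1, Kcnj8 and Kcnt2) were called. Of the 7 other genes described, leaving out 1 library called 0 to 1. The following log2 fold changes turned their sign. Leaving out 1 library gave -0.38 to 0.14 for Kcnh1 (positive without posterior replicate 1), -0.18 to 0.29 for Kcnk6 (negative without anterior or posterior replicate 3), -0.47 to 0.015 for Kcnmb4 (positive without posterior replicate 3) and -0.078 to 0.055 for Kcnn1 (positive without replicate 1 of either region). With the library-group term, and with posterior replicates 2 and 3 left out, Kcnk6 was -0.31 and -0.32, Kcnmb4 0.23 and 0.23, Kcnma1 -0.069 and -0.073, and Kcnj15 0.23 and 0.23. Kcnn1 was 0.010 with unstranded counts. The cause was not tested. Low counts limit Kcnh5, Kcnh8 and Kcnj13, which had at most 12 counts in a library.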
